A study of Mus musculus with 2 samples.

Results

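The genes described here encode the major histocompatibility complex (MHC) and the machinery that loads peptides onto it. They were chosen as every gene whose symbol starts with H2-, the mouse MHC prefix, and that has an annotated protein coding transcript, together with B2m, Tap1, Tap2, Tapbp, Cd74, Ciita and Nlrc5. The rule itself uses names and annotation and no measured value, though it was set with earlier results of these data known. It gave 44 genes of 55536 named genes in the deposited gene tables, 37 of them with an H2- symbol. Another 8 H2- entries have no protein coding transcript and are not members. The material was gastrocnemius, a calf muscle, from 10-day-old female B6CASTF1/J mice, the first-generation cross of C57BL/6J and CAST/EiJ. There was 1 group of 2 total RNA libraries, biological replicates 1 and 2, each made from 300 ng of RNA depleted of ribosomal RNA, with ERCC spike-ins. No treatment or second genotype was given, so no comparison between conditions was possible and no test was made.

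Class I molecules are cell surface proteins made of a heavy chain and the light chain beta-2-microglobulin. They show peptides from inside the cell to CD8+ T cells and to natural killer cell receptors. The peptides come from the proteasome, enter the endoplasmic reticulum through the TAP transporter and are loaded with the help of tapasin. Class II molecules are made of an alpha and a beta chain, are restricted mainly to antigen-presenting cells, and show peptides from endosomes to CD4+ T cells. Nlrc5 is the transactivator of class I genes and Ciita that of class II genes. Resting muscle fibres are known for little surface class I, while endothelium and resident macrophages of the same tissue carry it.

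The libraries held 35925081 and 39969380 expected counts, of which spike-ins took 0.720% and 0.798%. Markers of another tissue differed between them. The 10 bone and marrow markers summed to 422 TPM (a level per transcript length, scaled to a fixed total) in replicate 1 and 12.8 TPM in replicate 2. All 10 were more than 2-fold lower in replicate 2, among them Spp1 at 107 and 0.57 TPM, Ctsk at 78.6 and 10.9 TPM and Bglap at 77.5 and 0 TPM. The 8 muscle fibre markers, led by Acta1, Mylpf and Myl1, were detected in both libraries, at sums of 76678 and 89924 TPM. Labels give each library its own biosample but do not say whether each was 1 animal, so the spread given here is that between these libraries, which may be technical.

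Of the 44 genes, 40 lie on chromosome 17 between positions 33915899 and 37483552 (mm10), a span of 3.57 Mb. In that span the class I gene H2-K1 lies at one end (33996017 to 34000347), the class II genes follow, and H2-D1 (35262730 to 35267499) and the Q, T and M class I genes come after. B2m lies on chromosome 2 (122147686 to 122153083), Nlrc5 on chromosome 8 and Ciita on chromosome 16.

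Promoters are shown because their shared elements are the textbook description of this family and because near-identical copies run through the cluster. RefSeq promoter windows of 300 bases (250 before to 50 after the annotated start, build GRCm38.p6) were matched for 34 of the 44 genes. Capitals mark 4 motifs, searched on both strands: the kappa B core GGGGATT, the interferon element core AGTTTC, the X2 core TGACG and the Y box CTGATTGG. All are written 5′ to 3′ along the gene's strand.

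H2-K1 (chr17:34000298-34000597, minus strand): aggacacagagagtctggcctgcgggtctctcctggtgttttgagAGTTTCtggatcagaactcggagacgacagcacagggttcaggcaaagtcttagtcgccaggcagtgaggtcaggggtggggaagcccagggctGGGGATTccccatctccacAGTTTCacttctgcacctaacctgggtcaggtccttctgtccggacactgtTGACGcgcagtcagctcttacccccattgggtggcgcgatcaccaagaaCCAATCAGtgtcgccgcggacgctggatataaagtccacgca

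H2-D1 (chr17:35262844-35263143, plus strand): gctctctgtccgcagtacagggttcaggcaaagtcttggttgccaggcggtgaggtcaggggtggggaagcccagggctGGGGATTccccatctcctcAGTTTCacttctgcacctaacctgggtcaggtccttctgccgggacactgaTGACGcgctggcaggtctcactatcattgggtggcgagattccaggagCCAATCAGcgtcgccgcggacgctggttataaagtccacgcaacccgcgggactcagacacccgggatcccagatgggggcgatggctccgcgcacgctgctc

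H2-Q7 (chr17:35438905-35439204, plus strand): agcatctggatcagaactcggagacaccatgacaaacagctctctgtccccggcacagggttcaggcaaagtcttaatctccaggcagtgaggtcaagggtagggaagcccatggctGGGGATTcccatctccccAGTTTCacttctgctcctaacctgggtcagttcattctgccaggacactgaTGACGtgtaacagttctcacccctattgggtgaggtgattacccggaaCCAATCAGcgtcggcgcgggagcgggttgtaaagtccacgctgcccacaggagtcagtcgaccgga

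B2m (chr2:122147437-122147736, plus strand): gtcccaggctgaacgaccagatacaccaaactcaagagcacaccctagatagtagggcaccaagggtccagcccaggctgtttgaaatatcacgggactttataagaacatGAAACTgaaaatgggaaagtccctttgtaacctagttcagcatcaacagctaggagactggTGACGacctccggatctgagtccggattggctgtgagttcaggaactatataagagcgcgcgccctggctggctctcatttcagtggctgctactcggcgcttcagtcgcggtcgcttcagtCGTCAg

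H2-Aa (chr17:34287774-34288073, minus strand): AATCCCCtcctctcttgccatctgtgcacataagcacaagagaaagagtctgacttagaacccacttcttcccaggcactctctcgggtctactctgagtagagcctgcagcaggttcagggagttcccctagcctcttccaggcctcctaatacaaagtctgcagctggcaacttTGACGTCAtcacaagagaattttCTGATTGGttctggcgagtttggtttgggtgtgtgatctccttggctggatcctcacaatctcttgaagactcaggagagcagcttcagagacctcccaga

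H2-Eb1 (chr17:34305617-34305916, plus strand): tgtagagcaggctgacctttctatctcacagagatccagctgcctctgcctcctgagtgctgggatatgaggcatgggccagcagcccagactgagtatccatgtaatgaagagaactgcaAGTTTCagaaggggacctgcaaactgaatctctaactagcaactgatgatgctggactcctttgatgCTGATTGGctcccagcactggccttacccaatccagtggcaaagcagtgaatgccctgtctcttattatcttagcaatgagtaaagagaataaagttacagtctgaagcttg

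In H2-K1, H2-D1 and H2-Q7 the 4 motifs stand in the same order, kappa B core, interferon element core, X2 core and Y box. H2-K1 holds a further interferon element core upstream. H2-M10.1 also holds all 4. These 4 genes are among 7 of 32851 promoters in the table (0.0213%) that do. That share is over all windows in the table, while each member was searched in its first listed window only. B2m has the interferon element core on the opposite strand and the X2 core, with no exact match to the kappa B core or Y box. It has ATTGG, the end of the Y box string, at -53 from its start, after an X2 core at -78. ATTGG also follows the X2 core, not capitalised, in H2-K1 (-41, then -16), H2-D1 (-101, then -76) and H2-Q7 (-64, then -40). The Y box marked in these genes is a further match, on the opposite strand. Only exact strings were searched, and which match acts as a Y element was not tested. The class II genes H2-Aa and H2-Eb1 hold the Y box at 51 and 62 bases before their starts. In H2-Aa the X2 core and its reverse overlap.

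Counted over the matched genes, the Y box was in 18 of 34 (52.9%), against 4.10% of all promoters in the table. Here too members count by their first listed window and the table by all its windows. The kappa B core was in 10 of 34 (29.4%) against 3.10%. The interferon element core was in 16 of 34 (47.1%) against 15.8%, and the X2 core in 14 of 34 (41.2%) against 20.8%. The shorter CCAAT box CCAAT, which overlaps every Y box, was in 30 of 34 against 37.4%. The Y box was in 6 of 12 matched genes that were detected, and in 10 of 13 matched genes listed at 0 counts in both libraries. Many of these promoters are copies of one another and are not independent. Tap2, H2-Ab1, Cd74, Ciita, Nlrc5, H2-Ea-ps, H2-Q1, H2-T24, H2-Bl and H2-T10 had no entry.

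Antigen presentation was a small part of this RNA. The 44 genes summed to 182 TPM in replicate 1 and 159 TPM in replicate 2, which is 0.0400% and 0.0344% of the TPM of nuclear protein coding genes. The detection level was 1 TPM, and 16 of the 44 genes reached it in replicate 1 and in replicate 2 (36.4%). Among all protein coding genes 52.3% were detected, and among all named genes 22.6%. Another 14 members had 0 counts in both libraries. A count of 0 allows up to 3 counts, or 0.0835 and 0.0751 CPM in the 2 libraries, for counting error only.

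**Figure D1:**
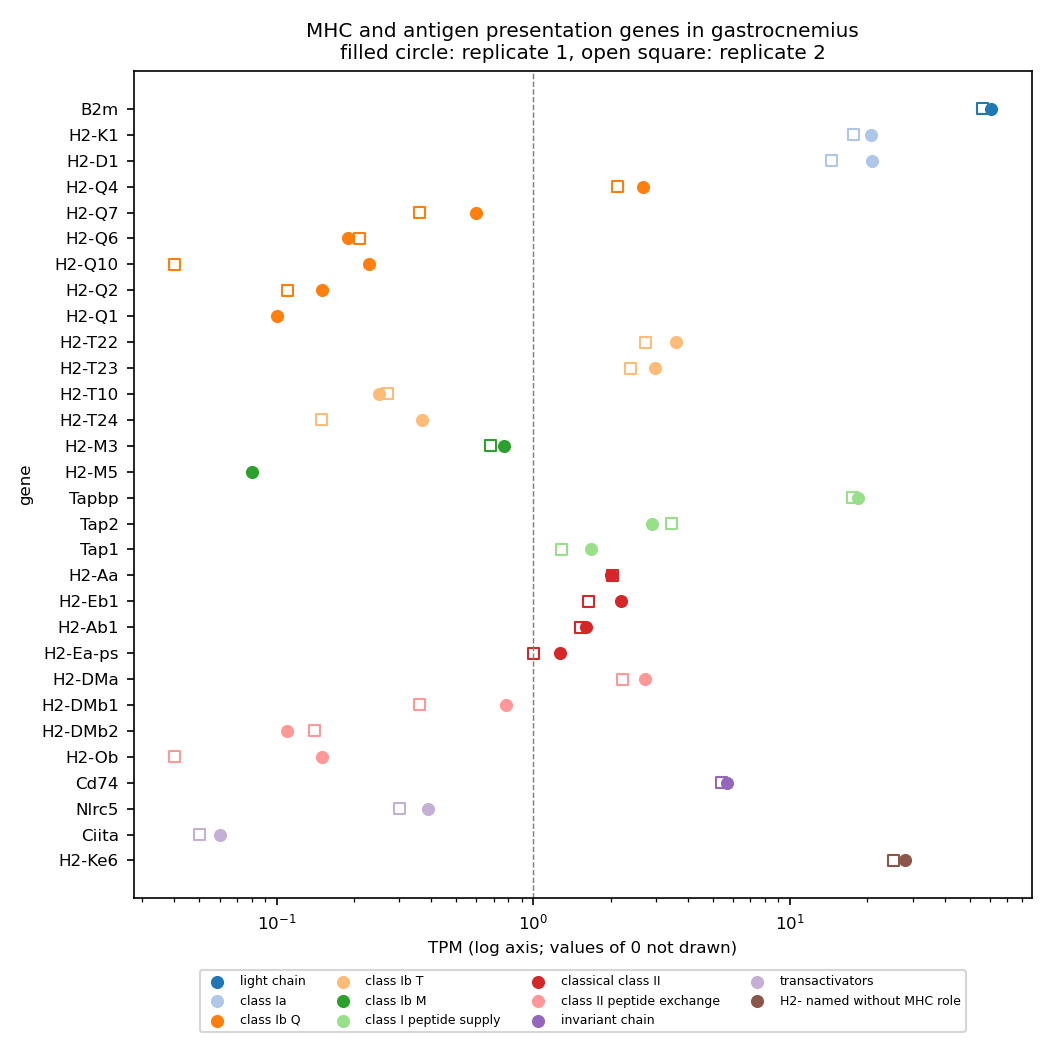
TPM of the 30 members with counts (log axis), grouped by role, with a filled circle for replicate 1 and an open square for replicate 2. The dashed line is the detection level of 1 TPM. B2m, H2-Ke6, H2-K1, Tapbp and H2-D1 stand above 14 TPM, Cd74 is next at 5.42 to 5.70 TPM, and the 10 other detected genes lie between 1.00 and 3.60 TPM.

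The light chain gene led. B2m had 60.7 TPM in replicate 1 and 56.0 TPM in replicate 2 (58.3 ± 3.33, SD, n = 2), from 1302 and 1366 counts. It was 1021st of 22028 protein coding genes by mean TPM. Its 34.2% ± 1.26 of the members' summed TPM was the largest share of any role. B2m has 1 annotated transcript, and all of its 31-base words occur in no other gene's transcripts, so its level involves no division of reads among genes.

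The classical class I heavy chains, H2-K1 and H2-D1, came next among MHC genes. These encode the polymorphic K and D molecules that present peptides to CD8+ T cells. H2-K1 had 20.7 and 17.6 TPM (19.1 ± 2.19). H2-D1 had 20.9 and 14.6 TPM (17.7 ± 4.48), so its range covers that of H2-K1 and the 2 genes cannot be ordered by TPM. By counts they stand apart: H2-K1 had 481 and 440, H2-D1 1062 and 868. Their summed TPM of 41.6 and 32.1 was 21.5% ± 1.89 of the members' total. B2m stood at 1.13 and 1.36 times the sum of all class I heavy chains. That log2 ratio of 0.31 ± 0.18 was 0.15 by kallisto-format TPM and 0.18 by posterior mean TPM. It turned to -0.53 on counts, which are not divided by length, so the order of light and heavy chain depends on that scale.

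H2-D1 was the only one of the 16 detected members whose deposited TPM intervals did not overlap between libraries, at 19.3 to 22.6 in replicate 1 and 13.4 to 15.8 in replicate 2. Over all detected protein coding genes 30.1% had intervals apart, so 1 of 16 is below the background. The level of these intervals is not given in the sources used here. After scaling by TMM, its log2 ratio of replicate 2 over replicate 1 was -0.20.

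The 24 non-classical class I genes (class Ib) were far lower, and 3 were detected. H2-T22, known in mouse as a ligand of gamma-delta T cell receptors, had 3.60 and 2.74 TPM. H2-T23, which encodes Qa-1, the mouse presenter of class I leader peptides to NKG2A, had 2.98 and 2.40 TPM. H2-Q4 had 2.67 and 2.12 TPM. All 3 had fewer TPM in replicate 2, and after TMM scaling their log2 ratios of replicate 2 over replicate 1 lay between -0.19 and -0.08. The summed class Ib TPM was 11.99 and 9.08, which is 0.288 and 0.283 of the class Ia sum, a log2 ratio of -1.81 ± 0.02. That SD is between libraries only, and other measures gave smaller gaps. The ratio was -1.56 by posterior mean TPM, -1.49 by counts and -1.33 by kallisto-format TPM. On protein coding transcripts alone, a measure chosen after the data were seen, it was -1.37.

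Among the M genes, H2-M3, which in mouse presents formylated peptides, lay just under detection at 0.77 and 0.68 TPM, from 29 counts in each library. H2-M5 had 4 counts in replicate 1 and 0 in replicate 2. The other 10 M genes, H2-M1, H2-M2, H2-M9, H2-M11 and H2-M10.1 to H2-M10.6, were listed at 0 counts in both. Several M10 genes are known in mouse from vomeronasal neurons. H2-T3 and H2-Bl were also listed at 0 counts, but the deposited posterior mean TPM was 0.61 and 0.54 for H2-T3 and 0.66 and 0.63 for H2-Bl, with interval bounds above 0 in both libraries. The kallisto-format tables gave H2-Bl 0.32 and 0.059 TPM. The Q genes other than H2-Q4 ranged from 0 to 0.60 TPM.

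Tapasin exceeded the transporter it bridges to. Tapbp, which holds empty class I molecules at TAP, had 18.3 and 17.5 TPM (17.9 ± 0.552). Tap2 had 2.90 and 3.44 TPM and Tap1 had 1.67 and 1.29 TPM, though the subunits pair one to one in the protein. The log2 ratio of Tapbp over the sum of Tap1 and Tap2 was 1.95 ± 0.08. It was 1.73 by posterior mean TPM, 1.57 by counts and 1.54 by kallisto-format TPM. On protein coding transcripts alone, a measure chosen after the data were seen, it was 3.50 ± 0.12. The 367-base coding entry Tapbp-208 held 26.7% and 29.9% of Tapbp TPM, from 36.9 and 45.0 counts, and 0 in the kallisto-format tables. Tap2 stood at 1.74 times Tap1 in replicate 1 and 2.67 times in replicate 2, a log2 ratio of 1.11 ± 0.44. Most of that Tap2 value sits on a transcript with a retained intron, described further on.

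The chaperones shared with general protein folding were abundant, while the trimming enzyme Erap1 had 11.89 and 9.75 TPM and Tapbpl 1.37 and 1.11 TPM. All 7 of the loading and trimming genes were detected, led by the chaperones Calr at 127 and 108 TPM, Hspa5 at 91.5 and 82.4 TPM, and Canx at 76.7 and 63.9 TPM. Of the 5 genes of the immunoproteasome and its PA28 activator, 4 were detected. The PA28 subunits Psme2, at 38.01 and 38.59 TPM, and Psme1, at 25.0 and 24.0 TPM, led it. The immunoproteasome subunit Psmb10 had 11.6 and 10.6 TPM. The other immunoproteasome subunits were lower, Psmb8 at 1.99 and 1.87 TPM and Psmb9, the gene not detected, at 0.69 and 1.12 TPM.

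The class II genes were detected at low level. H2-Aa, the A alpha chain, had 2.01 and 2.04 TPM from 58 and 68 counts. H2-Ab1, its beta partner, had 1.61 and 1.53 TPM from 48 and 44 counts. H2-Eb1, the E beta chain, had 2.20 and 1.64 TPM from 58 and 52 counts. The 3 chains cannot be ordered. By posterior mean TPM H2-Ab1 had 2.45 and 2.11, H2-Aa 2.18 and 2.21, and H2-Eb1 2.34 and 1.80. H2-Aa over H2-Ab1, 0.37 ± 0.07 in log2 TPM, became -0.051 with the deposited posterior mean TPM. H2-Eb2 was listed at 0 counts.

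The E alpha chain gene H2-Ea-ps had 1.27 and 1.00 TPM from 33 and 30 counts, which is 0.577 and 0.610 of H2-Eb1. That order turns on protein coding transcripts alone, with 1.21 against 0 TPM in replicate 1 and 1.00 against 0.23 TPM in replicate 2. In C57BL/6, the strain of the reference genome, this gene is known to be defective and not transcribed, hence its pseudogene name. The annotation calls it a polymorphic pseudogene. Its transcript H2-Ea-ps-202, annotated as protein coding, took 94.6% and 100% of its TPM in the 2 libraries. None of its 31-base words occur in another gene. The deposited tables do not divide reads by parental copy, so which parent's copy gave these counts was not tested.

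Classical class II was a small fraction of class Ia. The log2 ratio of summed class Ia over summed classical class II TPM was 2.55 in replicate 1 and 2.37 in replicate 2 (2.46 ± 0.13), which is 5.86-fold and 5.17-fold. Cd74, the invariant chain that fills the class II groove before peptide, had 5.70 and 5.42 TPM from 187 and 204 counts. By TPM it alone stood at 0.804 and 0.873 times the sum of the classical class II chains, a log2 ratio of -0.26 ± 0.08. That ratio was -0.36 by kallisto-format TPM, -0.45 by posterior mean TPM and -0.0013 by counts. On protein coding transcripts alone, a measure chosen after the data were seen, the ratio turned to 0.31 ± 0.05, from 5.70 against 4.72 TPM and 5.41 against 4.26 TPM.

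The peptide exchange genes were uneven. H2-DMa had 2.72 and 2.23 TPM from 74 and 70 counts. Its partner chain is encoded by the near-copies H2-DMb1, at 0.78 and 0.36 TPM, and H2-DMb2, at 0.11 and 0.14 TPM. H2-DMa over their sum was 1.88 ± 0.39 in log2 TPM and 0.86 ± 0.06 by kallisto-format TPM. H2-Ob, the beta chain of the inhibitor DO, had 9 and 3 counts, and its alpha partner H2-Oa was listed at 0. All 6 class II peptide processing genes were detected. The endosomal proteases Ctsd at 110 and 115 TPM, Ctsb at 94.3 and 88.1 TPM, and Ctsl at 71.7 and 59.1 TPM led them. The protease Ctss was the lowest of the 6, at 3.02 and 2.13 TPM from 107 and 86 counts.

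Neither transactivator was detected. Nlrc5 had 0.39 and 0.30 TPM from 32 and 30 counts. Ciita had 0.06 and 0.05 TPM from 9 and 7 counts. Nlrc5 over Ciita was 2.64 ± 0.08 in log2 TPM, 2.04 by posterior mean TPM, 1.96 by counts and 1.48 by kallisto-format TPM. Counts of Ciita were few, and the TPM of both genes lay below their own deposited intervals in both libraries. Their DNA-bound partners were present. Of 13 enhanceosome and MHC transcription factors 12 were detected, led by the Y box binding subunits Nfyc at 24.7 and 24.4 TPM and Nfyb at 17.9 and 16.6 TPM, and by Irf2 at 19.6 and 12.3 TPM.

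Of 19 genes of interferon gamma signalling and its targets 13 were detected, led by the kinase Jak1 at 57.1 and 53.3 TPM and the receptor chains Ifngr2 at 26.9 and 26.8 TPM and Ifngr1 at 14.0 and 13.2 TPM. The 6 not detected were the cytokine Ifng, with 1 and 0 counts, its targets Cxcl10, Iigp1, Cd274 and Gbp4, and the feedback inhibitor Socs1. Of 15 type I interferon targets 4 were detected. Ifitm3 had 30.99 and 23.58 TPM, Bst2 had 5.32 and 5.44 TPM and Xaf1 had 4.36 and 3.81 TPM. Of 8 MHC-like genes outside the H2- names 6 were detected, led by Fcgrt, the neonatal Fc receptor that also pairs with B2m, at 33.3 and 29.3 TPM. Procr, the endothelial protein C receptor, had 5.18 and 6.53 TPM, and Ulbp1, a ligand of NKG2D, 7.20 and 4.26 TPM.

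H2-Ke6, the second member by level at 28 and 25.26 TPM, has no MHC role. It lies among the MHC genes and encodes a hydroxysteroid dehydrogenase of fatty acid and steroid metabolism. It held 15.6% ± 0.331 of the summed member TPM, so the members' total includes that much RNA with no part in presentation. In the kallisto-format tables it held 21.6%. The entry Gm20427 (34026034 to 34031580) overlaps H2-Ke6 (34026033 to 34028060) on the same strand. It shares 76.1% of the 31-base words of H2-Ke6, and the tables divide reads between them differently. The RSEM-format tables gave Gm20427 1.15 and 0.29 TPM, against 5.23 and 5.06 TPM by the kallisto-format ones.

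Cells that carry MHC were visible by their markers. Of 11 macrophage markers 10 were detected, led by Lyz2 at 22.4 and 15.3 TPM, Csf1r at 17.8 and 12.8 TPM and Mrc1 at 16.2 and 14.3 TPM, and their sum was 102 and 77.7 TPM. All 8 endothelial markers were detected, at sums of 222 and 196 TPM, led by Cdh5 at 74.2 and 66.2 TPM, Pecam1 at 52.1 and 45.9 TPM and Kdr at 21.3 and 18.3 TPM. Of 9 dendritic cell markers Zbtb46 alone was detected, at 3.74 and 2.84 TPM, while Batf3 had 0.25 and 0.09 TPM, Siglech 0.13 and 0.06 TPM, and Xcr1 was at 0. Endothelium is also known to express Zbtb46.

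Of 8 B cell markers only Ighm was detected, at 5.68 and 2.52 TPM, and their sum was 9.66 TPM in replicate 1 and 3.36 TPM in replicate 2. Cd79b had 1.26 and 0.28 TPM and Pax5 0.65 and 0.25 TPM. None of 9 T and NK cell markers was detected. Cd4 had 0.95 and 0.38 TPM from 32 and 33 counts. Trac had 0.39 and 0.44 TPM from 8 and 7 counts, and Cd3d 0.14 and 0.33 TPM from 6 and 2 counts. For Cd4 and Cd3d the difference in TPM between the libraries was not matched by counts. Nkg7 and Ncr1 were at 0. None of 9 receptors that read MHC molecules reached 1 TPM in both libraries, the leading ones being Lilrb4a at 1.11 and 0.42 TPM and Pirb at 0.70 and 0.64 TPM. In bulk RNA, fewer cells of a type and less RNA per cell cannot be told apart. How much of any member's level came from these cells or from fibres was not tested.

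Between the libraries the members moved little. TMM-scaled log2 ratios of replicate 2 over replicate 1 were taken for genes with a mean of at least 20 counts, and 2-fold in either direction was the limit. None of 20 members passed it, against 4.55% of all 15198 genes at that count. At a mean of at least 100 counts none of 11 members passed, against 1.02% of 11759 genes. Such a share of 20 genes is under 1 gene, so the count of members was near the background. The median log2 ratio was -0.04 for members and 0.04 for all genes.

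The largest member difference was that of H2-DMb1, at -0.94, from 28.8 and 14.1 counts. Scaled to library totals or spike-ins it passed 2-fold. The highest was Tap2 at 0.32. Of the 20 members 12 were lower in replicate 2 (60%), against 44.2% of all genes. With spike-in scaling, which moves all genes by -0.39 in log2, all 20 were lower. Without a count filter, 5 of 30 members with counts passed, against 28.1% of 26527 genes. The 5 were H2-T24, H2-Q10, H2-Ob, H2-Q1 and H2-M5, all lower in replicate 2. Each of these had a mean under 20 counts. The 10 bone and marrow markers were all lower in replicate 2, with a median log2 ratio of -7.12. Of the 11 macrophage markers 6 were lower and 5 higher, with a median of -0.20. Their part in the members' ratios was not tested.

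**Figure D2:**
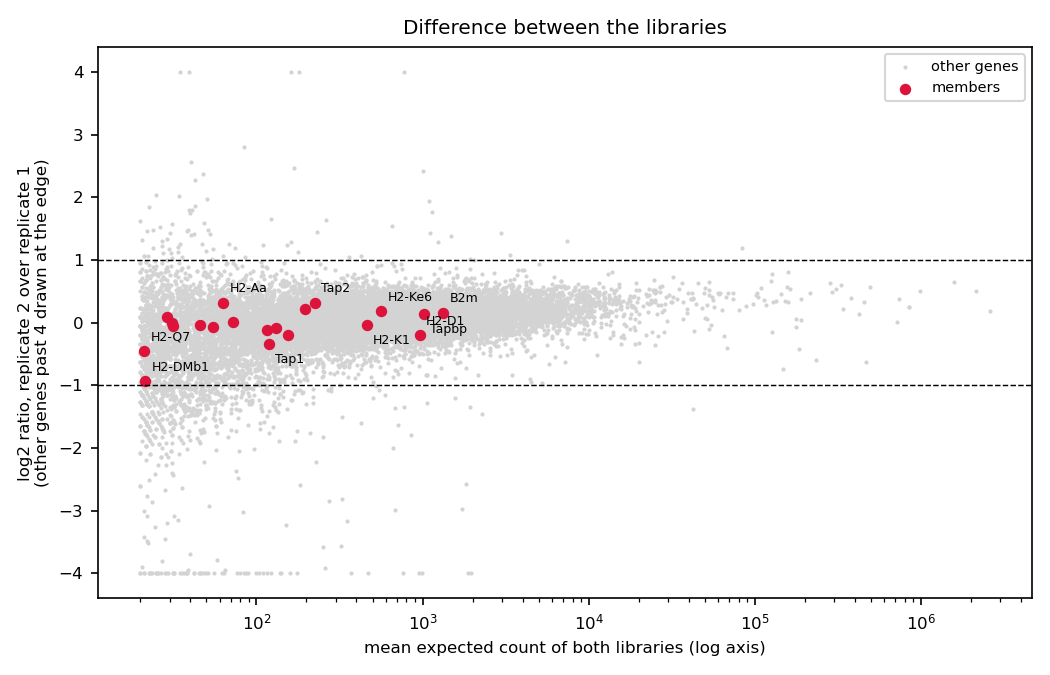
Log2 ratio of replicate 2 over replicate 1 after TMM scaling against the mean expected count (log axis), for genes with a mean of at least 20 counts. Grey points are other genes, drawn at 4 or -4 where they lie beyond, and red points the 20 members. Dashed lines mark 2-fold, and every member lies between them, from H2-DMb1 at -0.94 to Tap2 at 0.32.

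Class I genes resemble each other, and that limits how far reads can be assigned. Exon 4 of the class I heavy chain encodes the alpha-3 domain, which binds B2m and CD8. It is shown for 3 genes because it is the part most alike between H2-K1 and H2-D1. Sequences are the GENCODE M21 transcripts H2-K1-205, H2-D1-202 and H2-Q4-201 on mm10, 276 coding bases each, with capitals where a base differs from H2-K1.

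H2-K1 (chr17:33997285-33997560, minus strand): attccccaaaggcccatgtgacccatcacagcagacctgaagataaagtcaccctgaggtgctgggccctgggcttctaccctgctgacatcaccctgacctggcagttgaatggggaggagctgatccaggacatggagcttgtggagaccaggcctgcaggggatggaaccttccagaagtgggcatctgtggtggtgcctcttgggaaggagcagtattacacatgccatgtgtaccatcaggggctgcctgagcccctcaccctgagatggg

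H2-D1 (chr17:35265784-35266059, plus strand): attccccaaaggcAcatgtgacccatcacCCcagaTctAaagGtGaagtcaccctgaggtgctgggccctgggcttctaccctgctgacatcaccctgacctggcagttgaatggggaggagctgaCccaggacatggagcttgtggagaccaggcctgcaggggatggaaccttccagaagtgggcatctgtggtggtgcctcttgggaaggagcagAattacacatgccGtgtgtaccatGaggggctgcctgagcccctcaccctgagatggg

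H2-Q4 (chr17:35382858-35383133, plus strand): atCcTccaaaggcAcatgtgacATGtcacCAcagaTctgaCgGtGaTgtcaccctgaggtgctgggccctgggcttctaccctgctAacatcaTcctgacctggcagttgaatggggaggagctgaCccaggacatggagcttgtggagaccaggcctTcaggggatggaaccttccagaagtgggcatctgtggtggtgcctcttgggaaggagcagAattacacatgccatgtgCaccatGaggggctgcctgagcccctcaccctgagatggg

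H2-D1 differed from H2-K1 at 11 of these 276 bases (96.0% identical), with a longest identical run of 91 bases. H2-Q4 differed from H2-K1 at 20 bases (92.8% identical). Exons 2 and 3, which encode the peptide-binding alpha-1 and alpha-2 domains, were 91.1% and 88.0% identical between H2-K1 and H2-D1, with longest runs of 56 and 60 bases.

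Over all annotated transcripts, 77.2% of the 31-base words of H2-K1 and 73.3% of those of H2-D1 occurred in no other gene. For H2-T22 it was 49.0% and for H2-T10 49.3%, and 47.2% of the words of H2-T22 occur in H2-T10. H2-Q6 was at 49.7%, H2-Q7 at 60.9% and H2-Q4 at 61.6%. H2-DMb1 was at 68.6% and shares the remaining 31.4% with H2-DMb2. The class II chains H2-Aa, H2-Ab1 and H2-Eb1 were at 98.9% or more. Levels of H2-T22, H2-T10, H2-DMb1, H2-DMb2 and the Q genes are therefore uncertain as single genes.

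The reference is one strain and the mice are a cross, and the MHC is among the most polymorphic regions of the mouse genome. The words counted above are from C57BL/6 only. Every class I and class II level here comes from reads assigned to C57BL/6 transcripts. The deposited tables do not show how many reads of the CAST/EiJ copy went unassigned or to a related gene, and this was not tested.

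The deposited tables hold a spread of the abundance estimate, the coefficient of quartile variation of TPM. For Tapbp it was 0.0515, 1.58 times the median of protein coding genes within 1.5-fold of its TPM, and for H2-K1 0.0474, 1.49 times the median. For H2-D1 it was 0.857 times, for H2-T22 0.839 times and for H2-Q4 0.815 times the median. Tapbp, the widest of the 16 against genes of its level, has 95.4% of its words to itself. Among 30 members with counts, 4 had a TPM under their own deposited interval in both libraries (13.3%), against 5.52% of protein coding genes with counts.

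The RSEM-format and kallisto-format tables differ in how they assign reads. Kallisto-format TPM was 2-fold or more above RSEM-format TPM for 3 of 19 members with a mean TPM of at least 1 in either, against 12.8% of 14688 genes. In either direction 16.7% of those genes were 2-fold apart, and the members' 3 all went one way. The share of members was near the background. The 3 were H2-Q7, at 0.48 mean TPM against 1.72 (log2 ratio 1.82), H2-DMb1, at 0.57 against 1.66 (1.53), and H2-Q4, at 2.40 against 5.06 (1.07). After the kallisto-format TPM was rescaled to the same sum over protein coding genes, H2-Q7 alone of 18 remained past 2-fold, against 8.42% of genes.

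**Figure D3:**
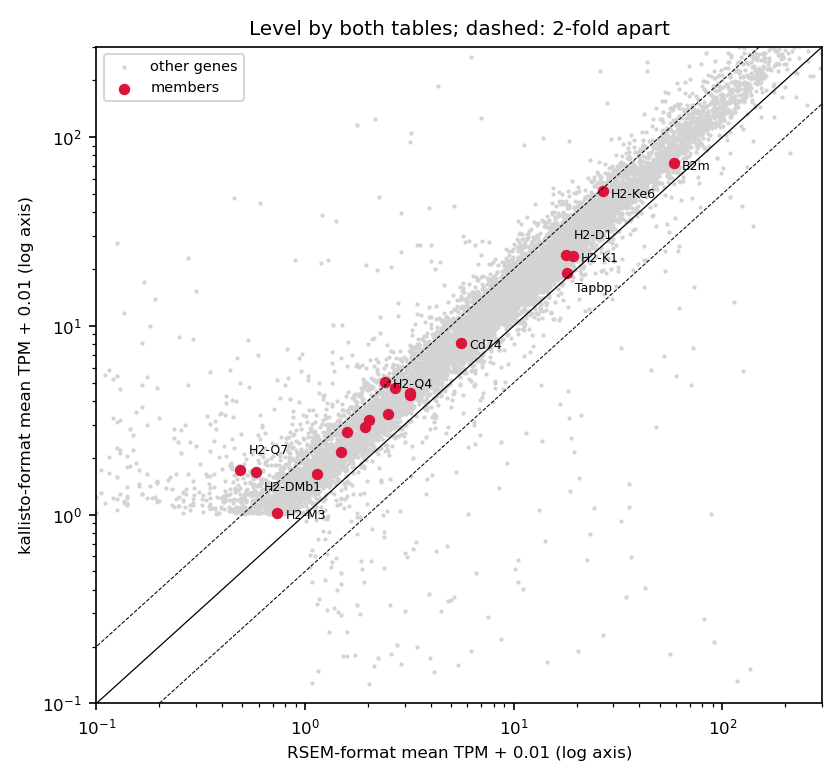
Mean TPM in the kallisto-format tables against mean TPM in the RSEM-format tables, both plus 0.01 on log axes, for genes at a mean TPM of at least 1 in either. Grey points are other genes, with those beyond the axes not shown, and red points the 19 members. The solid line is equality and dashed lines are 2-fold, and H2-Q7, H2-DMb1 and H2-Q4 lie above the upper one.

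Which transcript a gene's reads fell on changed some of these levels. For 3 of the 16 detected members (18.8%), under 50% of TPM was on protein coding transcripts in both libraries. The same held for 6.50% of 11528 detected genes. The 3 were H2-K1, H2-Eb1 and Tap2. The kallisto-format tables gave 2 (12.5%), without H2-K1, against 8.45% of those genes. A list of 16 is short, and these shares describe it only. Median coding share was 87.3% for the detected members and 91.3% for all these genes.

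**Figure D4:**
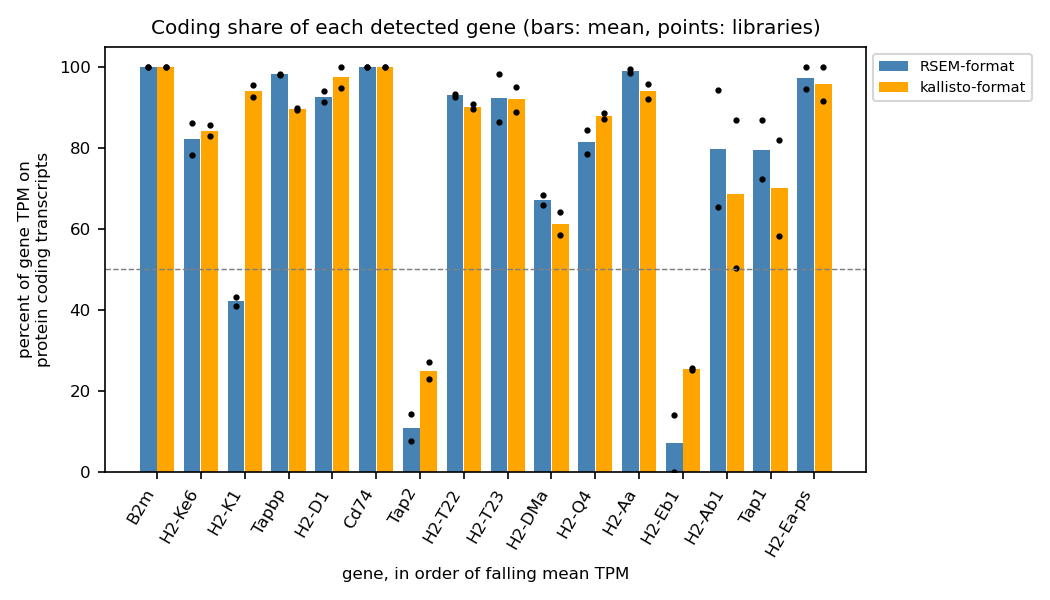
Percent of each detected member's TPM on protein coding transcripts, as the mean of both libraries (bars) with each library as a point. Blue is the RSEM-format and orange the kallisto-format table, and the dashed line is 50%. Tap2 and H2-Eb1 lie below it by both tables, H2-K1 only by the RSEM-format table (42.1%).

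For H2-K1 the RSEM-format tables placed 51.4% and 55.0% of its TPM on H2-K1-215, a 457-base entry with a retained intron. That entry had 107 and 111 of the gene's 481 and 440 counts, and 0 in the kallisto-format tables. TPM divides counts by length, so a short entry takes a larger part of TPM than of counts. H2-K1 had 8.94 and 7.21 TPM on coding transcripts and H2-D1 had 19.1 and 13.7 TPM. On that measure, chosen after the data were seen, H2-D1 over H2-K1 was 1.01 ± 0.12 in log2, against -0.13 ± 0.20 over all transcripts and 1.06 ± 0.12 by counts. In the kallisto-format tables over all transcripts it was 0.07 in replicate 1 and -0.07 in replicate 2. Class Ia over class II on coding transcripts was 2.43 ± 0.19, within 1 SD of the value over all transcripts.

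For Tap2, 92.5% and 85.7% of TPM was on Tap2-202. It keeps the intron between the sixth and seventh exons of the coding form Tap2-201 and starts with a first exon of 57 bases against 1097. The kept intron (GENCODE M21, mm10) is 162 bases long and is shown because it gives the entry its retained-intron annotation.

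Tap2 (chr17:34212068-34212229, plus strand): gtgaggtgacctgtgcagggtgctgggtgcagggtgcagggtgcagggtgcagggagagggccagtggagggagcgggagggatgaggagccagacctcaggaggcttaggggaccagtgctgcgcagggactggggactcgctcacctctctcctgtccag

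The coding form Tap2-201 had 0.22 and 0.06 TPM, while Tap2-202 had 2.69 and 2.95 TPM. By the kallisto-format tables Tap2-202 held 77.2% and 73.0%. Coding transcripts alone put Tap2 under Tap1, at 0.22 against 1.46 TPM in replicate 1 and 0.49 against 0.94 TPM in replicate 2.

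For H2-Eb1, 82.7% and 59.3% of TPM was on H2-Eb1-205, annotated as subject to nonsense-mediated decay. Its second exon starts 53 bases after that of the coding form H2-Eb1-203. Those bases (GENCODE M21, mm10), absent from the leading entry, encode part of the beta-1 domain and are the stretch by which the forms can be told apart there.

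H2-Eb1 (chr17:34309591-34309643, plus strand): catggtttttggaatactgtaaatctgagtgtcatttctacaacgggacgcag

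The coding form had 0 TPM in replicate 1 and 0.23 TPM in replicate 2 in the RSEM-format tables, and 25.2% and 25.7% of the gene's TPM in the kallisto-format tables.

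The 8 H2- entries without a protein coding transcript were mostly silent. The pseudogene H2-T-ps had 1.5 and 1.11 TPM from 41.0 and 34.5 counts. H2-K2 had 0.27 and 0.38 TPM and H2-Q5 had 0.20 and 0.11 TPM. The other 5 had 0 counts in both libraries.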

How the data were processed

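Total RNA of 2 gastrocnemius libraries was measured by sequencing after ribosomal RNA reduction. The build was mm10 with GENCODE M21, per the readme text deposited with each library. For the aligner and the quantifying tools, the name is not given in the sources used here. Each table therefore goes by the column layout it has, RSEM-format or kallisto-format. Expected counts in the deposited tables divide reads that match several transcripts by a model, per the file headers. Deposited TPM and FPKM are scaled by effective length and depth, and FPKM was not used. The share (fraction) called coefficient of quartile variation, the interval bounds of TPM (unit score here) and the percent of a gene's abundance held by each transcript are columns of the deposited tables. Rows that name no gene held 1.38e-05% and 5.00e-06% of counts and were left out.

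Members came from symbols and transcript types, and kallisto-format values were summed per gene. The members, gene lists and roles were chosen with earlier results of these data known. Genes named with values were every detected member, Ciita and Nlrc5, members past 2-fold between libraries and the leading 3 genes of each list. Further members and list genes were named after their values were seen. Expected counts were rounded to whole numbers, scaled by TMM in edgeR 4.0.16 (R 4.3.3, prior count 0.5) and given as log2 ratios. DESeq2 1.42.0 size factors, library totals and spike-ins were alternatives. The libraries differed by a chi-square of 53.2 per degree of freedom over 15204 genes, so they are not one library deposited again. The ratio step was tested on simulated data. With 1 group of 2 libraries, an exact sign-flip permutation test could not go below p = 0.5, so no p-value is given. The X2 core, Y box, exon comparison and coding share were added after the data were seen. Words of 31 bases were counted over all M21 transcripts. Python 3.11.15 and pandas 2.3.3 were used.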

Additional observations from a re-analysis of the deposited data

How the results depend on the processing

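Shares of summed member TPM by role depend on the measure. From the kallisto-format TPM they were 30.3% for B2m, 21.6% for H2-Ke6, 19.5% for class Ia, 10.7% for peptide supply, 4.35% for classical class II, 4.19% for the T genes, 3.15% for the Q genes, 2.25% for class II peptide exchange, 0.476% for the M genes and 0.157% for the transactivators. From expected counts they were 24.9% for class Ia, 23.8% for peptide supply, 23.3% for B2m, 9.88% for H2-Ke6, 5.23% for the T genes, 3.41% for classical class II, 3.06% for the Q genes, 0.680% for the transactivators and 0.541% for the M genes. From posterior mean TPM they were 32.1% for B2m, 15.2% for H2-Ke6, 4.39% for classical class II, 4.35% for the T genes, 2.47% for class II peptide exchange, 0.792% for the M genes and 0.518% for the transactivators. Class Ia over class II in log2 was 2.16 by kallisto-format TPM, 2.27 by posterior mean TPM, 2.30 with a pseudocount of 1 and 2.86 by counts. The direction turned for B2m over all heavy chains by counts (-0.53) and for H2-Aa over H2-Ab1 by posterior mean TPM (-0.051). On protein coding transcripts alone, chosen after seeing the data, it turned for Cd74 over class II (0.31) and Tap2 over Tap1 (-1.84), and H2-Ea-ps over H2-Eb1 had no value because H2-Eb1 had 0 coding TPM in replicate 1. TPM divides by length and counts do not, and the cause of the other shifts was not tested.

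The count of members past 2-fold between libraries, 0 in the report, was 1 of 20 with library totals (6.57% of all genes), 1 of 20 with spike-in totals (8.71%), 1 of 20 at a limit of 1.5-fold (11.6%) and 5 of 30 with no count filter (28.1%), each at or below the share of all genes. The median member ratio was -0.28 with library totals and -0.43 with spike-ins. The count past 2-fold between tables, 3 in the report, was 1 at a mean TPM of at least 5 and 1 after rescaling to coding genes. No paired analysis was possible because the series has 1 group. Of the limits, low counts touch H2-M5, Ciita, H2-Ob, H2-DMb2 and the Q genes other than H2-Q4. Shared sequence touches H2-Ke6, H2-T22, H2-T10, the Q genes, H2-DMb1 and H2-DMb2. Replicate 2 holds far fewer bone and marrow transcripts, and the parental copies were not separated.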
